A study of Drosophila melanogaster with 12 samples.

Results

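Mutant fat bodies were compared with mutant whole larvae to ask what sets the larval fat body apart when the estrogen-related receptor is missing, and which of the tissue differences seen in controls were lost or gained. Genes with a mean level of at least the log2 of 10, called the minimum here, in either mutant group were taken, which gave 9869 of the 24134 genes listed. All 12 samples were second instar (L2) *Drosophila melanogaster* larvae on a *w1118* background, raised for 60 h at 25 °C on molasses agar with yeast, in 4 groups of 3: fat bodies of *ERR1/2* mutants (replicates 1, 2 and 4), whole *ERR1/2* mutants (replicates 1 to 3), fat bodies of *ERR1/+* heterozygous controls (replicates 5 to 7) and whole *ERR1/+* controls (replicates 1 to 3). The controls are not wild type, since every larva of the study carried at least 1 *ERR1* allele. The fat bodies were dissected from small groups of larvae that the study's methods call technical replicates, so the p-values below measure the spread between these samples, which may be technical. The fat body is also part of the whole larva, which limits how far above the whole larva a fat body gene can stand. In tissue RNA, fewer cells of a type and less RNA per cell cannot be told apart.

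The fat body combines the storage and secretory roles that liver and adipose tissue have in vertebrates: it makes and stores triglyceride and glycogen, releases trehalose and lipoproteins into the hemolymph, senses nutrients and secretes growth factors and basement membrane. *Drosophila* has a single estrogen-related receptor, dERR, a nuclear receptor known for driving genes of carbohydrate metabolism in the growing larva. Hepatocyte nuclear factor 4 (*Hnf4*), another nuclear receptor, is known for driving genes of fatty acid oxidation. The values are regularized log2 counts (rlog), which pull each gene toward its own average across samples, so that large differences of weakly expressed genes are understated. A tissue difference is the mean fat body value minus the mean whole larva value on this log2 scale, given with its standard error (n = 3 against 3), and a gene was called higher or lower when limma's treat test against a difference of 1 gave an adjusted p under 0.05.

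The *ERR* transcript itself did not separate the mutant tissues or mark the genotype. It stood at 8.4, 8.25 and 8.39 in mutant fat bodies and at 8.21, 8.28 and 8.01 in mutant whole larvae, a tissue difference of 0.18 ± 0.21. Control fat bodies had 9.11, 9.24 and 8.29, so fat body control 7 lay among the mutants, and control whole larvae had 8.16, 8.39 and 8.37. A transcript from a mutant allele can still be counted, so *ERR* does not check the labels here. *Hnf4* was 10.3, 9.85 and 9.68 in mutant fat bodies and 9.29, 9.39 and 9.24 in mutant whole larvae. Its tissue difference, 0.64 ± 0.15, was next to that of controls, 0.65 ± 0.15, and neither passed the test against 1 in the values as deposited. With samples centred on their medians the *Hnf4* difference became 1.49 and was called.

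Replicates of a group correlated across genes at 0.963 to 0.972 in mutant fat bodies and 0.967 to 0.978 in mutant whole larvae, and the median standard deviation of a gene was 0.209 and 0.164, respectively. The fat bodies expressed fewer genes: 7227 to 7405 genes reached the minimum in a mutant fat body and 9720 to 9765 in a mutant whole larva. The median over the genes tested was correspondingly lower in fat bodies, 7.04 to 7.16 over all 6, than in whole larvae, 7.95 to 8.0. Fat body control 7 stood apart from the other fat body controls in larval storage protein and muscle transcripts. It also had the most gonad transcripts of the fat body controls, although these were spread widely over the fat bodies of both genotypes. Totals of mutant calls, interactions and lost and gained differences are given below with and without it. Control calls, calls shared by both genotypes, correlations between genotypes and the control and interaction counts of the gene lists include it. These values do not show how deeply a sample was sequenced.

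More genes were called lower than higher in mutant fat bodies, which rests in part on the filter and the scaling. Of the 9869 genes, 461 were called higher in mutant fat bodies (4.67%), 3065 were called lower (31.1%) and 6343 were not called. Over the 10069 genes tested in either genotype, the calls were 461 (4.58%) and 3150 (31.3%). The median of the genes called lower was -5.56 and that of the genes called higher was 2.0, and the extremes ran from -14.8 to 9.37. Only 38 genes were called higher with a difference above 3, while 2625 were called lower with a difference below -3. Many of the low genes were in the comparison through the whole larva alone: 2590 had a fat body mean under the minimum, of which 2339 were called lower. A gene admitted in that way had to differ, so those calls describe the filter as much as the tissue. Among the 7187 genes at or above the minimum in both mutant groups, 445 were called higher and 726 lower, and only 92 genes were under the minimum in whole larvae alone, with 16 called higher.

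How many genes count as higher depends on what is held equal between a tissue and a whole animal. The median tissue difference over all genes tested was -0.36 as deposited, 0.49 after each sample was centred on its median, 0.42 after quantile normalization and -0.62 after centring on the cytosolic ribosomal protein genes. Genes called higher made up 12.8%, 42.1%, 56.5% and 8.89% of all calls, respectively. The same direction was called under all 4 scalings for 326 of the 461 genes called higher and for 1517 of the 3150 called lower. Values below are as deposited, and counts under other scalings are given for the lists that moved most. List counts are to be read beside the shares over all genes tested. These were 4.58% higher and 31.3% lower in mutants, and 4.57% and 32.3% in controls.

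Controls had nearly the same map of tissue differences. Control fat bodies had 460 genes higher (4.57%) and 3249 lower (32.3%) than control whole larvae. Genes called higher in both genotypes numbered 287, which is 62.3% of the mutant and 62.4% of the control calls, and genes called lower in both numbered 2912, which is 92.4% and 89.6%. The tissue differences of the 10069 genes correlated between genotypes at r = 0.938 (0.879 over the 6985 genes at or above the minimum in all 4 groups), with no sample shared between the comparisons. This is a correlation across genes, which are not independent, and is given as a description. The difference between the mutant and the control tissue difference, called the interaction here, was tested against no change and passed at an adjusted p under 0.05 for 1032 genes (10.2%), 590 in the positive (5.86%) and 442 in the negative direction (4.39%). After ribosomal centring the split was 997 against 181 and the median interaction over all genes went from -0.03 to 0.3. It was 494 against 461 after median centring and 490 against 375 after quantile normalization.

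**Figure D1:**
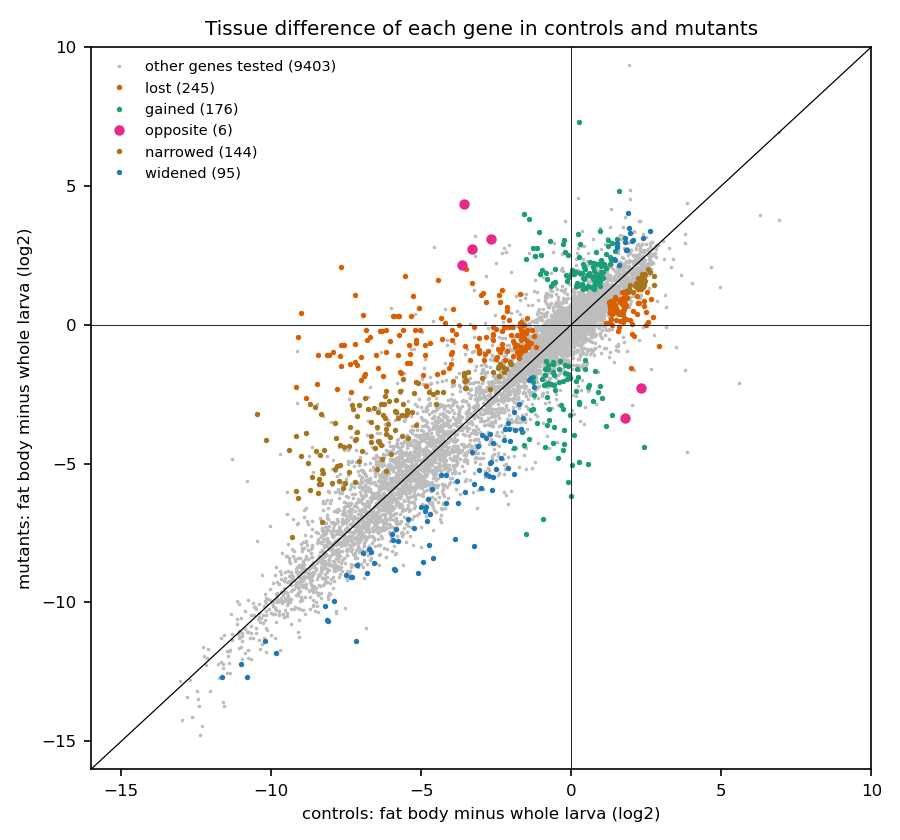
Tissue difference (fat body minus whole larva, log2) of the 10069 genes tested, in controls (horizontal axis) and in mutants (vertical axis), each point a gene and the diagonal marking equal differences. Most genes lie along the diagonal from the lower left to the upper right, while the 245 lost differences lie near the horizontal zero line, the 176 gained ones near the vertical zero line, and the 6 of opposite direction in the upper left and lower right quadrants.

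Several genes for the traffic and synthesis of fat were higher in the mutant fat body. *apolpp*, which encodes the core protein of the main hemolymph lipoprotein, stood at 18.57, 18.24 and 18.21 in mutant fat bodies and at 15.55, 16.1 and 16.05 in mutant whole larvae. The difference was 2.44 ± 0.23 (adjusted p = 0.00015), next to 2.31 ± 0.23 in controls. The 3 fat bodies all lay above the 3 whole larvae (the groups did not overlap for 74.1% of the genes tested in mutants and 76.6% in controls), as for each gene called higher that is named in this and the next paragraphs. *Apoltp*, the lipid transfer particle, differed by 2.96 ± 0.24, *Mtp*, which loads lipid onto lipoproteins in the secretory pathway, by 1.8 ± 0.14, and *cv-d*, a lipoprotein-like secreted protein, by 2.69 ± 0.12. Of 9 lipoprotein and lipid carrier genes, 4 were called higher and 3 lower, the same counts as in controls. The 3 lower calls are near the share of all genes tested that were called lower in mutants, 31.3%. The mean of the list was 8.54 to 9.07 in mutant fat bodies and 9.19 to 9.35 in mutant whole larvae. The lipocalin *NLaz* was among the low ones, at -0.9, -0.99 and -1.09 in mutant fat bodies and 5.16, 5.1 and 4.5 in mutant whole larvae.

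Of 9 genes of fatty acid synthesis 8 were called higher and none lower, with a median difference of 2.26 (1.94 in controls, where 7 were called higher). Their count was 9, 7 and 6 after median centring, quantile normalization and ribosomal centring. *FASN1*, the fat body fatty acid synthase, stood at 18.4, 18.04 and 18.19 in mutant fat bodies against 15.24, 15.51 and 15.32 in mutant whole larvae, and differed by 2.86 ± 0.15 (adjusted p = 5.6e-07). *ACC*, which makes malonyl-CoA, differed by 2.74 ± 0.15 and *ATPCL*, which makes cytosolic acetyl-CoA from citrate, by 2.92 ± 0.14. The desaturase *Desat1* and the acetyl-CoA synthetase *AcCoAS* differed by 2.12 ± 0.16 and 2.58 ± 0.17. None of the 9 genes had an interaction that passed. *ATPCL* came nearest, with a difference 0.68 ± 0.2 larger in mutants (interaction adjusted p = 0.056).

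Of 17 genes for triglyceride storage and lipolysis 7 were called higher and 2 lower, the same as in controls, and their median was 0.51. *Lsd-1*, a perilipin, stood at 14.81, 14.83 and 14.91 in mutant fat bodies and 12.02, 12.13 and 11.63 in mutant whole larvae, a difference of 2.92 ± 0.13. *Jabba*, which anchors histones to droplets, differed by 3.17 ± 0.15, and the acyltransferase *Agpat2* by 2.9 ± 0.25. *mdy*, the diacylglycerol acyltransferase that completes triglyceride, was still higher (1.56 ± 0.1), but by less than in controls (2.27 ± 0.1, interaction -0.71 ± 0.14, adjusted p = 0.0088). The lipase *bmm* was 7.61, 5.83 and 7.23 in mutant fat bodies and 8.53, 7.48 and 8.84 in mutant whole larvae, with overlapping groups and no call (-1.39 ± 0.51). *Fatp1*, a fatty acid transport protein, was lower in fat bodies of mutants (-1.89 ± 0.18) and of controls (-1.55 ± 0.18), although no longer called in mutants after median centring.

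Of 8 basement membrane genes 7 were called higher and 1 lower in both genotypes, with a median of 2.59 in mutants and 2.27 in controls. The collagen IV chains *Col4a1* and *vkg*, which are neighbours on chromosome 2L, differed by 2.71 ± 0.18 and 2.82 ± 0.16. *Col4a1* stood at 17.69, 17.34 and 17.06 in mutant fat bodies and 14.45, 14.74 and 14.76 in mutant whole larvae. *LanB1*, a laminin chain, and the collagen-binding *SPARC* differed by 2.85 ± 0.17 and 2.77 ± 0.11, and the perlecan gene *trol* by 1.79 ± 0.23, which was not called after quantile or ribosomal scaling. The exception was nidogen, *Ndg*, at 1.72, 3.39 and 2.67 in mutant fat bodies and 10.68, 10.88 and 11.05 in mutant whole larvae (-8.27 ± 0.85).

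Of 10 glycogen and trehalose genes 7 were called higher and 2 lower in mutants, against 4 and 1 in controls, and the interaction passed for 3 in the positive and 2 in the negative direction. The mean of the list was 11.11 to 11.19 in mutant fat bodies and 10.6 to 10.85 in mutant whole larvae, and 11.47 to 11.59 and 11.29 to 11.43 in controls. *Tps1*, which makes trehalose, stood at 13.83, 13.72 and 13.87 in mutant fat bodies and 11.87, 11.7 and 11.79 in mutant whole larvae, a difference of 2.02 ± 0.12 (2.28 ± 0.12 in controls). The trehalose transporter *Tret1-1* differed by 2.62 ± 0.11 and the hexokinase *Hex-C* by 2.54 ± 0.21. A pair of trehalose phosphatase genes that lie 499 bases apart on 2L went opposite ways: *CG5171* was higher in the fat body (3.11 ± 0.14) and *CG5177* lower (-7.73 ± 0.55). In the pentose phosphate pathway 4 of 7 genes were called higher and none lower in mutants (6 in controls). The mean of this list was lower in both mutant tissues than in controls. It was 11.64 to 11.67 in mutant and 12.39 to 12.81 in control fat bodies, and 9.72 to 9.91 and 10.84 to 10.99 in whole larvae. *Pgd* and the transketolase *CG8036* were further above the whole larva in mutants (3.03 ± 0.16 and 2.97 ± 0.13) than in controls (2.05 ± 0.16 and 1.8 ± 0.13), with interactions of 0.98 ± 0.23 and 1.16 ± 0.18 (adjusted p = 0.02 and 0.0026), of which that of *Pgd* did not pass in 3 of 12 fits with 1 sample left out.

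Of 15 fat body and sugar transcription factors 2 were called higher and 2 lower in mutants, and of 17 signalling genes 6 were called higher and 5 lower. Over all genes tested 4.58% were called higher and 31.3% lower, so the lower calls of neither list exceed that share. *srp*, the GATA factor that specifies the tissue in the embryo, was 10.92, 10.57 and 10.64 in mutant fat bodies and 8.79, 8.89 and 8.73 in mutant whole larvae (1.9 ± 0.18, adjusted p = 0.00092). *svp*, a COUP-TF nuclear receptor, differed by 1.92 ± 0.13 and was the only 1 of 15 nuclear receptors called higher, while 5 were called lower, as in controls. Those 5 are near the share called lower over all genes tested. *AkhR*, the receptor of the adipokinetic hormone that mobilizes fat, was 12.02, 11.87 and 12.03 in mutant fat bodies and 8.7, 8.81 and 8.27 in mutant whole larvae. Its difference of 3.38 ± 0.13 was wider than in controls (2.64 ± 0.13, interaction adjusted p = 0.026), although the interaction lost its call when any 1 of 4 samples was left out (adjusted p up to 0.064). The insulin-like peptide *Ilp6* and the activin-like ligand *daw* differed by 2.7 ± 0.26 and 2.67 ± 0.29. The growth-blocking peptides *Gbp2* and *Gbp3* differed by 1.52 ± 0.11 and 2.18 ± 0.09, and the difference of *Gbp2* was narrower than in controls (2.21 ± 0.11, interaction adjusted p = 0.017), which did not pass after quantile or ribosomal scaling. *Gbp1*, of the same family, was not called (-0.24 ± 0.32).

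**Figure D2:**
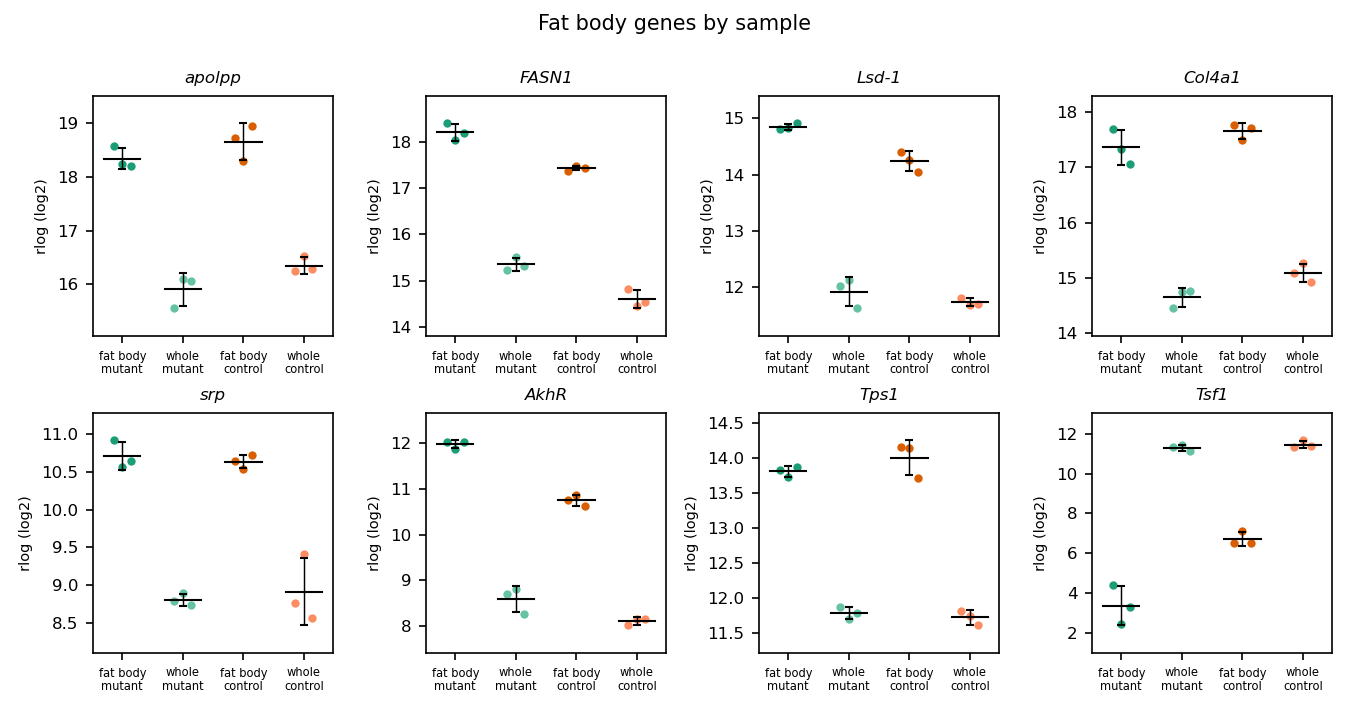
Level (rlog, log2) of 8 genes in each of the 12 samples, each point a sample, horizontal bars the group mean and vertical bars the standard deviation (n = 3). In mutants, *apolpp*, *FASN1*, *Lsd-1*, *Col4a1*, *srp*, *AkhR* and *Tps1* lie higher in all 3 fat bodies than in all 3 whole larvae, by 1.9 to 3.38, and *Tsf1* lies lower by 7.92.

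Some genes known as fat body products were not high in these tissues. Of the 21 fat body markers tested, 10 were called higher and 3 lower in mutants, with 11 and 2 in controls, and the interaction passed for 1 in the positive and 5 in the negative direction. The list's median difference was 0.99 in mutants and 1.71 in controls, beside -0.36 and -0.38 over all genes. Of the larval storage proteins, which the fat body secretes in bulk in the third instar, *Lsp1gamma* was -0.13, -0.24 and -0.37 in mutant fat bodies and 1.4, -1.0 and -0.51 in mutant whole larvae. Controls had 7.6, 7.77 and 15.26 in fat bodies and 10.98, 10.24 and 11.82 in whole larvae, so the storage protein was low in every mutant sample of either tissue. *Lsp1beta* was 9.4, 9.51 and 11.88 in mutant fat bodies and 12.91, 13.28 and 11.63 in mutant whole larvae, with overlapping groups (-2.34 ± 1.11). The iron carrier *Tsf1* was 4.39, 2.42 and 3.3 in mutant fat bodies and 11.33, 11.42 and 11.13 in mutant whole larvae. It was already lower in control fat bodies (-4.74 ± 0.39), and the difference was wider in mutants (-7.92 ± 0.39, interaction adjusted p = 0.0046).

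Of 12 hemolymph protein genes, 5 were called higher and 2 lower in mutants, against 8 and 2 in controls, and the interaction was negative for 4. The clotting protein *fon* (2.06 ± 0.13) and the immune protease *psh* (2.26 ± 0.15) kept the difference they had in controls. *Idgf2*, a secreted chitinase-like growth factor, went from 2.06 ± 0.15 in controls to 1.18 ± 0.15 in mutants (interaction adjusted p = 0.029, not passed in 7 of 12 fits with 1 sample left out), which no longer passed the test against 1.

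Markers of other tissues were mostly lower in fat bodies. Of 99 markers of 12 other tissues and cell types, 80 were called lower in mutant fat bodies and 2 higher (81 and 2 in controls). All 15 midgut markers were called lower, with a median of -10.69, and their mean level ran from 0.2 to 0.48 in mutant fat bodies and from 10.69 to 11.36 in mutant whole larvae. All 14 muscle markers, all 11 of the epidermis, all 7 of the ring gland and 10 of 11 neuron markers were also called lower. All 15 midgut and 7 ring gland markers and 9 of 11 in each of the epidermis and neuron lists were under the minimum in mutant fat bodies and entered through the whole larva, so their direction was fixed and the counts are a description. After quantile normalization 6 of the neuron markers were called lower. Muscle transcripts were reduced but not absent: the mean of the muscle list was 5.36 to 6.18 in mutant fat bodies and 14.26 to 14.44 in mutant whole larvae, and *Mhc*, the muscle myosin, was 5.87, 7.16 and 6.88 against 16.43, 16.54 and 16.77. The 2 markers called higher were *Eaat1*, a glutamate transporter chosen as a glial marker (2.28 ± 0.12), and *Eglp4*, a glycerol channel chosen for Malpighian tubules (1.35 ± 0.14). *Eglp4* lost its call when any 1 of 7 samples was left out. Of 9 hemocyte markers 6 were called lower, with list means of 4.96 to 5.75 in mutant fat bodies and 7.56 to 7.93 in mutant whole larvae.

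Gonad markers were the exception, with none of 8 called and wide spread between the fat bodies. Their mean level was 6.21, 1.02 and 3.51 in mutant fat bodies 1, 2 and 4 and 1.28, 3.57 and 6.37 in control fat bodies 5, 6 and 7, while mutant whole larvae had 4.56, 4.8 and 4.15. Larval gonads are embedded in the fat body. The germline helicase *vas* followed the list, at 6.23, -0.26 and 3.56 in mutant fat bodies and 5.78, 6.06 and 5.16 in mutant whole larvae. The 12 cell division genes had means of 6.62, 4.36 and 5.89 in mutant fat bodies 1, 2 and 4 and of 4.09, 5.93 and 6.77 in control fat bodies 5, 6 and 7, the same order as the gonad markers within each genotype. None of the 12 was called in mutants, and 1 was called lower in controls. *CycA*, a mitotic cyclin, was 6.1, 3.04 and 4.57 in mutant fat bodies against 7.7, 7.88 and 7.9 in mutant whole larvae. *PCNA*, the DNA replication clamp, was 9.83, 10.17 and 9.49 against 9.58, 9.6 and 9.57. The salivary gland list also varied, with 2.36, 3.08 and 5.88 in mutant fat bodies 1, 2 and 4. The part of gonad, dividing or gland cells in the differences of other genes was not tested.

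Genes of the vacuolar proton pump and of amino acid breakdown were mostly lower in the fat body than in the whole larva of either genotype. Of 22 subunits of the vacuolar proton pump (V-ATPase), 20 were called lower and none higher in both mutants and controls, with medians of -2.26 and -2.39. *Vha55*, a catalytic-head subunit, was 11.23, 11.2 and 11.15 in mutant fat bodies and 13.62, 13.57 and 13.55 in mutant whole larvae (-2.39 ± 0.07, adjusted p = 9.8e-09). The membrane subunit genes *Vha100-1* and *Vha100-2* differed, with *Vha100-2* lower by -2.49 ± 0.1 and *Vha100-1* not called (0.31 ± 0.07). The number of subunits called lower was 14, 19 and 20 under the other 3 scalings. In amino acid breakdown 8 of 13 genes were called lower and 1 higher in mutants as deposited, and 8 and 5 after median centring. The tyrosine pathway was near the floor: the aminotransferase *Tat* was -0.22, -0.33 and -0.45 in mutant fat bodies and 9.58, 8.96 and 9.75 in mutant whole larvae, and *Hpd* and *hgo* of the same pathway differed by -8.81 ± 0.63 and -8.73 ± 0.57. The gene called higher as deposited was *v*, tryptophan dioxygenase (2.37 ± 0.14). Of 89 cytosolic ribosomal protein genes 1 was called lower and none higher, but 62 were called higher after median centring.

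**Figure D3:**
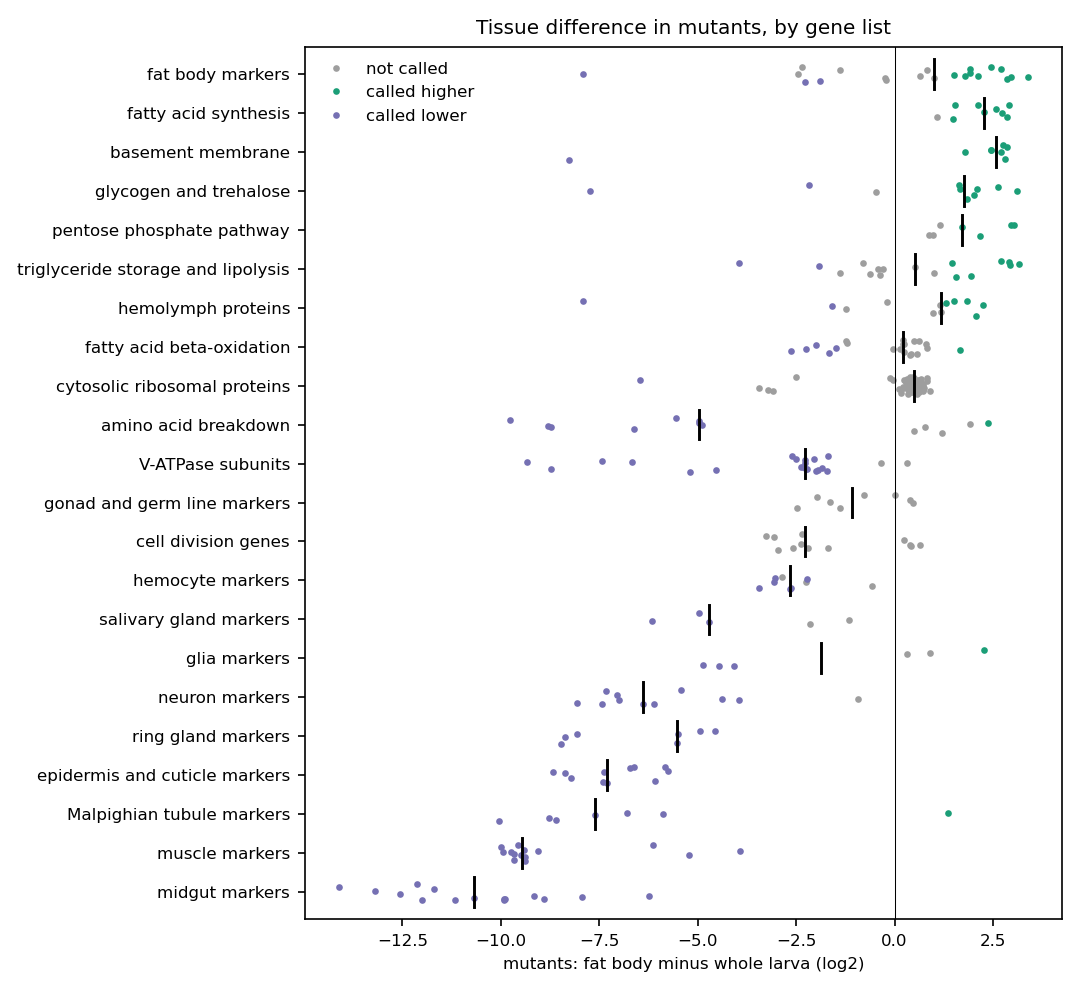
Tissue difference in mutants (fat body minus whole larva, log2) of the members of 22 gene lists, each point a gene, coloured by its call, with the list median as a black bar. Members of fatty acid synthesis and basement membrane lie mostly between 1 and 3, the gonad and cell division lists have no called member, and the midgut and muscle lists have medians of -10.69 and -9.46.

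The 12 largest differences in favour of the mutant fat body were mostly genes of little known function, and several of them were low in control fat bodies. *CG33502* had the largest value, 9.37 ± 2.29 (adjusted p = 0.0081), from 7.07, 9.02 and 8.92 in mutant fat bodies and -0.82, -1.37 and -0.91 in mutant whole larvae. It was erratic in controls, at 5.81, -0.55 and 6.61 in fat bodies and -0.8, -0.83 and 7.75 in whole larvae. *CG46460* followed with 7.3 ± 0.67: it was 6.45, 6.3 and 6.92 in mutant fat bodies and -1.5, -2.02 and 1.3 in mutant whole larvae, and between -1.51 and -1.23 in all 6 controls. *CG46460* (chr3L:4224710-4227302 in the BDGP6.54 annotation) lies within the span of *ImpL2* (chr3L:4224006-4236147) on the same strand, so reads of the 2 genes may not be told apart. *Ugt37A3*, *CG43175*, *CG4269* and *CG7142* were strongly expressed in mutant fat bodies, with *CG43175* at 11.39, 11.93 and 11.96 and *CG4269* at 12.25, 12.58 and 12.79. *CG4269* differed by 4.02 ± 0.31 in mutants and by 1.9 ± 0.31 in controls (interaction adjusted p = 0.011).

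The peptidase gene *Nepl4* (3.74 ± 0.29) and *Zmynd10* (3.73 ± 0.47), known for assembly of ciliary dynein, were called higher in both genotypes. The control call of *Zmynd10* was lost in 5 of 12 fits with 1 sample left out and after ribosomal centring (1.68). *Hsp22*, a mitochondrial small heat shock protein, was 8.72, 10.58 and 9.45 in mutant fat bodies and 7.53, 5.78 and 4.27 in mutant whole larvae, and its call was lost without whole mutant 3 or fat body mutant 2. *CG12374* (4.83 ± 0.9) was not called in controls, and its interaction did not pass. The 28S rRNA pseudogene *28SrRNA-Psi:CR45862* lost its call when any 1 of 3 samples was left out, and the antisense RNA *asRNA:CR44976* when any 1 of 2 was. How reads were assigned to a strand is not stated in the sources used here, so an antisense gene is uncertain. The 12 genes were called higher under all 4 scalings.

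At the other end, 10 of the 12 smallest differences belonged to 4 families that include gut enzymes, with the cuticle gene *Cpr65Ax1* and *CG18180* making up the rest. The serine proteases *Jon99Fii*, *Jon99Cii*, *Jon99Ciii* and *Jon25Biii*, the lysozymes *LysB* and *LysD*, the acyl-CoA binding proteins *Acbp3* and *Acbp5* and the mannosidases *LManV* and *LManVI* are close copies of each other within their families, and reads may be shared between copies. *Jon99Fii* was 0.37, 0.25 and 0.12 in mutant fat bodies and 15.33, 14.92 and 14.77 in mutant whole larvae, a difference of -14.76 ± 0.56. Control fat bodies had 0.38, 2.74 and 3.18, so 2 of the 3 control fat bodies stood above all 3 mutant ones. None of these 12 genes had an interaction that passed, and all were called lower under all 4 scalings.

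Most genes called lower in either genotype were called in both, and the interaction was used to sort genes called in 1 genotype only. A difference was taken as lost when it was called in controls and not in mutants and the interaction passed, and as gained in the reverse case. Genes called in 1 genotype only, without an interaction that passed, belong to neither class. Lost differences numbered 245 (2.43% of the genes tested) and gained differences 176 (1.75%), of which 202 and 175 met the level rule in a mutant group. Differences called in both genotypes but with an interaction that passed numbered 144 where the mutant difference was smaller (narrowed) and 95 where it was larger (widened), and 2960 were called in both without an interaction that passed. The 25 narrowed genes with the fat body higher had a median of 1.55 in mutants and 2.36 in controls, and the 17 widened ones 2.97 and 1.84. These classes are sensitive to scaling: 44 of the 245 lost and 33 of the 176 gained kept their class under all 4 scalings. Without fat body control 7, 485 genes were called higher and 3155 lower, the interaction passed for 1334, and 291 differences were lost and 180 gained. Without whole control 1 the interaction passed for 691, with 179 lost and 146 gained.

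In most of the lost and gained genes the genotype difference was larger in fat bodies than in whole larvae. Among the 87 genes lost with the fat body higher in controls, the median mutant minus control difference was -1.23 in fat bodies and -0.16 in whole larvae, and 85 of the 87 moved more in fat bodies. For the 98 gained with the fat body higher in mutants these medians were 1.61 and 0.18, and for the 78 gained with the fat body lower they were -2.28 and -0.1. Over all genes tested they were -0.07 and 0.01. Among genes called in both genotypes without an interaction that passed, 71.0% of those higher and 62.6% of those lower moved more in fat bodies, and of the 119 narrowed with the fat body lower 49.6% did. The 158 genes lost with the fat body lower in controls fell into 106 that moved more in fat bodies (medians 2.34 and 0.0) and 52 that moved more in whole larvae (medians -0.12 and -6.11).

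**Figure D4:**
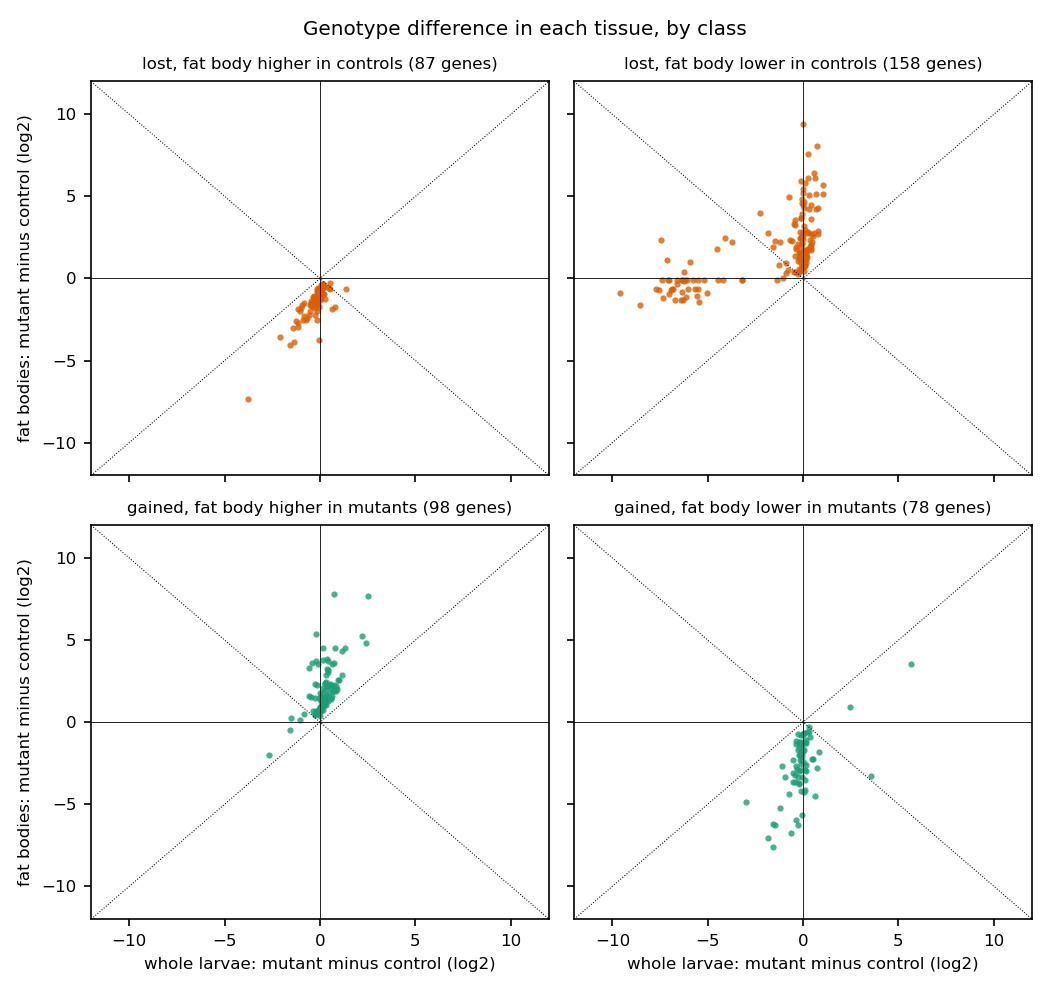
Mutant minus control difference (log2) in whole larvae (horizontal axis) and in fat bodies (vertical axis) of the genes in each lost or gained class, each point a gene and dotted lines marking equal size. Points of 3 classes run along the vertical axis, while the class lost with the fat body lower in controls has an upward arm of fat body genes and a leftward arm of 52 genes that moved more in whole larvae.

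Genes that stood out in control fat bodies and no longer did in mutants included enzymes of small-molecule oxidation. *Hao*, a hydroxyacid oxidase, was 13.41, 13.16 and 13.17 in control fat bodies and 11.07, 11.31 and 11.29 in control whole larvae (2.03 ± 0.14). In mutants it was 10.8, 10.86 and 10.47 in fat bodies and 11.25, 10.8 and 11.07 in whole larvae (-0.33 ± 0.14), with overlapping groups. The interaction was -2.36 ± 0.19 (adjusted p = 6.1e-05). *Sodh-1*, a sorbitol dehydrogenase, was low in both mutant tissues: 6.07, 6.32 and 5.83 in mutant fat bodies and 7.85, 7.37 and 7.72 in mutant whole larvae, against 14.12, 13.06 and 13.11 in control fat bodies and 11.22, 11.58 and 11.51 in control whole larvae. Its difference went from 2.0 ± 0.26 to -1.57 ± 0.26 (interaction adjusted p = 0.00023), and without fat body control 5 the mutant difference was called lower (adjusted p = 0.0082). *CG33307* went from 2.57 ± 0.17 to 0.11 ± 0.17, and *CG33307* and *Hao* kept the class under all 4 scalings.

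*Lime*, a transcription factor known from hemocytes, was 10.36, 10.08 and 10.01 in control fat bodies and 6.89, 5.13 and 6.77 in mutant fat bodies, while its whole larva values were 7.2, 7.73 and 8.01 in controls and 6.33, 5.87 and 6.62 in mutants. Its interaction did not pass in 3 of 12 fits with 1 sample left out or after quantile normalization (-0.63, adjusted p = 0.62), where both genotypes were called higher. *NimC3*, a phagocytic receptor, went from 2.74 ± 0.35 in controls to 0.26 ± 0.35 in mutants (interaction adjusted p = 0.0096). After quantile normalization *NimC3* was called higher in controls (5.57) and in mutants (3.83), so its difference was narrowed rather than lost. The hemocyte markers had an interaction that passed for none of 9, and the part of hemocytes in these differences was not tested. *lncRNA:CR43411* had the largest loss among genes higher in control fat bodies, -3.72 ± 0.58, and lies 1930 bases from *Adh* on the same strand of 2L. Its difference, too, was narrowed rather than lost after quantile normalization (5.75 in controls and 2.76 in mutants). It and the weakly expressed *CG34436* and *CG34034* had means under the minimum in both mutant groups and so fall outside the 9869 genes. *CG34436* and *CG34034* lost their interaction call in 9 of 12 and 7 of 11 fits with 1 sample left out.

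Losses of smaller size included genes of fatty acid oxidation and of one-carbon metabolism. Of 21 fatty acid oxidation genes, 1 was called higher and 5 lower in mutants, against 3 and 2 in controls, and the interaction was negative for 12 and positive for 2. After median centring 7 were called higher and 1 lower in mutants. *Etf-QO*, which passes electrons from acyl-CoA dehydrogenases to the respiratory chain, was 11.43, 11.2 and 11.19 in mutant fat bodies and 10.94, 10.81 and 10.78 in mutant whole larvae. The difference of 0.43 ± 0.09 was under the 1.28 ± 0.09 of controls (interaction adjusted p = 0.0017). The hydroxyacyl-CoA dehydrogenase *scu* went from 1.36 ± 0.12 to 0.39 ± 0.12 and the acyl-CoA dehydrogenase *Arc42* from 1.63 ± 0.12 to 0.82 ± 0.12. *Echs1*, the mitochondrial enoyl-CoA hydratase, had 1.05 ± 0.08 in controls and -0.04 ± 0.08 in mutants (interaction -1.09 ± 0.11, adjusted p = 0.00023), although it passed the test against 1 in neither genotype.

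Of 14 genes of one-carbon and purine synthesis 3 were called higher and 1 lower in mutants, against 7 and 1 in controls, and the interaction was negative for 3. After median centring 13 were called higher in mutants. *Shmt*, which feeds serine carbon into the folate cycle, was 12.74, 12.76 and 12.87 in mutant fat bodies and 12.37, 11.89 and 12.12 in mutant whole larvae, a difference of 0.67 ± 0.13 against 1.82 ± 0.13 in controls. *Sardh*, sarcosine dehydrogenase, went from 2.24 ± 0.14 to 0.78 ± 0.14 and *pug*, a folate interconversion enzyme, from 1.65 ± 0.13 to 0.93 ± 0.13. The interaction of *pug* lost its call in 7 of 12 fits with 1 sample left out. *ry*, xanthine dehydrogenase, *Hn*, phenylalanine hydroxylase, and *Rpi*, ribose-5-phosphate isomerase, belonged to this class as well, although the interaction of *Hn* and *ry* lost its call in 7 and 3 of 12 such fits. *fbp*, the fructose bisphosphatase of gluconeogenesis, went from 1.77 ± 0.11 to 0.65 ± 0.11 (interaction adjusted p = 0.0014). Of the 19 named genes of the class none was called higher in mutants as deposited, 10 were called higher after median centring and 5 after quantile normalization. The 10 included *Etf-QO*, *Arc42*, *fbp*, *Rpi*, *Shmt*, *pug*, *ry*, *Hn*, *Sardh* and *Idgf2*, whose differences were narrowed rather than lost under that scaling. After ribosomal centring 5 of the 19 were still lost and *Sodh-1* counted as gained, and the interaction no longer passed for *scu*, *Arc42*, *Rpi*, *pug*, *ry*, *Hn*, *Idgf2*, *CG34436* and *CG34034* (adjusted p = 0.072, 0.21, 0.31, 0.27, 0.16, 0.3, 0.054, 0.053 and 0.086).

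Some genes near the floor in the control fat body were high in the mutant one. *Alp4* (chr3R:31048929-31052540), an alkaline phosphatase known from the Malpighian tubules, was 2.37, 3.07 and 2.62 in control fat bodies and 11.38, 12.42 and 12.56 in mutant fat bodies. Its whole larva values were 11.76, 11.76 and 11.55 in controls and 11.99, 11.53 and 11.56 in mutants, so a tissue difference of -9.0 ± 0.29 became 0.43 ± 0.29 (interaction 9.43 ± 0.4, adjusted p = 8.4e-07). *Alp4* was not among the 7 Malpighian tubule markers, whose mean was 1.58 to 1.91 in mutant fat bodies and 1.88 to 1.93 in control fat bodies. The tubule enzyme *Uro* was 2.43, -0.14 and -0.26 in mutant fat bodies against 10.88, 10.67 and 10.61 in mutant whole larvae. The part of tubule cells in the *Alp4* values was not tested. *fiz*, an oxidoreductase, was 2.99, 1.86 and 2.54 in control fat bodies and 12.47, 10.02 and 9.13 in mutant fat bodies, beside 11.67, 11.65 and 11.59 in mutant whole larvae. Without fat body mutant 1 the mutant difference of *fiz* was called lower (-2.06, adjusted p = 0.012). The cytochrome P450 gene *Cyp305a1* was 0.21, 2.77 and 3.46 in control and 10.04, 8.97 and 10.13 in mutant fat bodies, with a difference of 1.77 ± 0.67 in mutants that was called higher after median centring or quantile normalization. *GstD2*, a glutathione S-transferase, went from -2.9 ± 0.26 to -1.26 ± 0.26.

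In the other arm of this class the whole larva lost the transcript. *Tb*, a Tweedle cuticle protein, was 6.43, 7.01 and 3.1 in control whole larvae and -1.68, -2.19 and -1.77 in mutant whole larvae, and between -1.64 and -1.41 in the 6 fat bodies. *Alp7*, *CG14257*, *CG9083* and *CG12723* were also lower in mutant than in control whole larvae: *Alp7* was 8.98, 8.52 and 9.14 in control whole larvae, 1.06, -1.81 and -1.37 in mutant whole larvae and 1.32 or lower in every fat body. All 52 genes of this arm were lower in mutant than in control whole larvae, which follows from how the arm was defined and is no separate result. Of the 52, 7 carry Cpr, Twdl or Osi cuticle gene symbols. In 14 of the 52 the fat body mean was higher in mutants than in controls.

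Some genes of glycogen use, glycolysis and the mevalonate pathway gained a fat body difference, while others of the same lists did not. A gained difference need not be a raised level. The mean of the glycolysis list was 10.32 to 10.44 in mutant fat bodies and 10.18 to 10.38 in mutant whole larvae. It was higher in controls, at 12.6 to 12.8 in fat bodies and 12.62 to 12.74 in whole larvae. *GlyP*, glycogen phosphorylase, was 14, 13.7 and 14.17 in mutant fat bodies and 12.22, 12.02 and 12.09 in mutant whole larvae (1.84 ± 0.15, adjusted p = 0.00045). Controls had 13.87, 13.89 and 13.41 in fat bodies and 13.78, 13.46 and 13.66 in whole larvae (0.09 ± 0.15), so it was the whole larva that was lower in mutants. *PyK*, pyruvate kinase, went from 0.85 ± 0.1 to 2.19 ± 0.1. *AGBE*, the glycogen branching enzyme, went from 0.99 ± 0.17 to 2.1 ± 0.17 and *Pglym78*, phosphoglycerate mutase, from 0.81 ± 0.12 to 1.5 ± 0.12, although both tissues had less of *Pglym78* in mutants. The interaction of *Pglym78* lost its call in 5 of 12 fits with 1 sample left out.

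*Hmgs*, HMG-CoA synthase of the mevalonate pathway, was 12.44, 12.75 and 12.88 in mutant fat bodies and 10.78, 10.63 and 10.61 in mutant whole larvae, while control fat bodies had 11.15, 11.69 and 10.72 and control whole larvae 10.74, 10.77 and 10.7. Its difference went from 0.45 ± 0.2 to 2.01 ± 0.2 (interaction adjusted p = 0.0059). Over the 9 mevalonate genes the interaction was positive for 4 and negative for 1, with *Fpps*, farnesyl pyrophosphate synthase, going from -0.34 ± 0.14 to 1.25 ± 0.14 and *qless*, which makes the ubiquinone side chain, from -1.24 ± 0.17 to 1.2 ± 0.17. *Hmgs* was the only 1 of the 9 called higher in mutants as deposited, and 4 were after median centring.

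*ImpL2*, a secreted protein that binds insulin-like peptides, was 11.35, 11.29 and 10.99 in mutant fat bodies and 9.36, 9.54 and 9.78 in mutant whole larvae. In controls the fat bodies, at 8.68, 8.71 and 9.43, were below the whole larvae, at 9.65, 9.85 and 9.72, and the difference went from -0.8 ± 0.19 to 1.65 ± 0.19 (interaction 2.45 ± 0.27, adjusted p = 0.00032). The call in mutants was lost after ribosomal centring. The gene *CG46460* within it showed the same direction. *Invadolysin*, a metalloprotease, and the uncharacterized *CG33301* and *CG1638* gained differences of 2.38 ± 0.32, 3.0 ± 0.23 and 3.33 ± 0.3. *CG33301* was 12.9, 13.27 and 12.56 in mutant fat bodies and 8.71, 8.54 and 7.98 in control fat bodies, with 10.2, 10.04 and 9.5 in mutant whole larvae. *lncRNA:CR44964* gained 2.47 ± 0.57, which was no longer called in 4 of 12 fits with 1 sample left out.

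Genes that fell out of the mutant fat body made up the gained differences of the other sign. *pdgy*, an acyl-CoA synthetase, was 10.77, 9.04 and 10.41 in control fat bodies and 4.42, 2.69 and 2.78 in mutant fat bodies, against 9.57, 9.21 and 9.58 in mutant whole larvae. A tissue difference of -0.02 ± 0.51 became -6.16 ± 0.51 (interaction -6.14 ± 0.72, adjusted p = 0.00045). The amino acid enzymes *Daao2*, a D-amino acid oxidase, and *Srr*, serine racemase, were near the floor in mutant fat bodies and not in mutant whole larvae: *Daao2* was 0.06, -0.05 and 0.79 against 7.23, 7.21 and 7.31, and *Srr* was 3.1, 1.3 and 0.87 against 9.45, 9.11 and 9.28. The zinc finger gene *dati* went from a difference of -0.1 ± 0.28 to -5.66 ± 0.28. It was -0.34, -0.44 and -0.55 in mutant fat bodies and 5.2, 5.35 and 5.03 in control fat bodies. After quantile normalization *dati* was called higher in controls (3.53) and not called in mutants (-0.15), which makes it a lost difference. *CG8665*, the sugar transporter gene *Slc45-1* and *CG14669* gained differences of -4.95 ± 0.36, -5.06 ± 0.34 and -5.0 ± 0.47. *lncRNA:SMRG*, at -0.45, 1.85 and 2.15 in mutant fat bodies and 6.4, 4.59 and 5.79 in mutant whole larvae, lost its call without whole mutant 1 or fat body mutant 1.

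Fatty acid oxidation was represented here too. *yip2*, a mitochondrial thiolase, was 8.62, 9.09 and 8.35 in mutant fat bodies and 11.64, 11.1 and 11.18 in mutant whole larvae (-2.62 ± 0.18, adjusted p = 9.8e-06). Control fat bodies, at 13.22, 12.95 and 13.01, were above control whole larvae, at 11.97, 12.08 and 12.05 (1.03 ± 0.18), so the order of the tissues reversed, though the control difference did not pass the test against 1. *Mcad*, medium-chain acyl-CoA dehydrogenase, went from 0.56 ± 0.2 to -2.25 ± 0.2 and *CG3902*, an acyl-CoA dehydrogenase, from 0.78 ± 0.07 to -1.66 ± 0.07. *CG7461*, another acyl-CoA dehydrogenase, gained the opposite difference, from 1.05 ± 0.07 to 1.67 ± 0.07 (interaction adjusted p = 0.004). After median centring *Mcad* and *CG3902* were no longer called lower and counted as lost differences.

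*Pepck2*, which makes phosphoenolpyruvate, was 5.93, 4.66 and 5.18 in mutant fat bodies and 8.81, 8.07 and 8.63 in mutant whole larvae (-3.24 ± 0.32), against 1.35 ± 0.32 in controls. *Treh*, which cleaves trehalose, went from -0.9 ± 0.12 to -2.18 ± 0.12. *Tpi*, triose phosphate isomerase, went from -0.03 ± 0.15 to -1.9 ± 0.15, with 7.13, 7.56 and 7.69 in mutant fat bodies, 9.51, 9.25 and 9.32 in mutant whole larvae and 12.13 to 12.55 in all 6 controls. Over 13 glycolysis genes 3 were called higher and 2 lower in mutants, against 1 and 1 in controls (8 and 1 in mutants after median centring), and the interaction passed for 3 in the positive and 2 in the negative direction. *Ldh*, lactate dehydrogenase, was low in fat bodies of either genotype, and its difference narrowed from -8.4 ± 0.5 to -5.75 ± 0.5 (interaction adjusted p = 0.04, not passed in 10 of 12 fits with 1 sample left out). In mutant whole larvae it was 6.81, 6.74 and 6.64, and in control whole larvae 12.31, 12.08 and 12.32.

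The direction was opposite in the 2 genotypes for 6 genes (0.0596% of those tested), and in all 6 the fat body moved more than the whole larva. *Ugt37A3*, a UDP-glycosyltransferase, was 2.5, 4.58 and 4.92 in control fat bodies and 12.56, 14.31 and 12.99 in mutant fat bodies, while whole larvae had 7.76, 7.24 and 7.76 in controls and 9.73, 8.73 and 8.34 in mutants. The difference went from -3.58 ± 0.63 to 4.35 ± 0.63 (interaction 7.94 ± 0.9, adjusted p = 0.00036). *Ugt37A2*, which lies 540 bases from it on the other strand of 3R, went from -2.67 ± 0.46 to 3.1 ± 0.46. These are close relatives whose reads may be shared. *CG42329* and *CG1688* went from -3.29 ± 0.65 and -3.66 ± 0.28 to 2.71 ± 0.65 and 2.14 ± 0.28.

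In the other direction, *Obp99a*, an odorant-binding protein, was 14.19, 13.37 and 13.94 in control fat bodies and 6.5, 7.25 and 7.32 in mutant fat bodies, with 10.78, 10.12 and 10.27 in mutant whole larvae. Its difference went from 1.8 ± 0.28 to -3.37 ± 0.28 (interaction adjusted p = 4e-05). *Adh*, alcohol dehydrogenase, a well known fat body enzyme, was 17.75, 18.15 and 17.15 in control fat bodies and 13.86, 11.39 and 12.91 in mutant fat bodies, while whole larvae had 15.13, 14.86 and 15 in mutants. The difference went from 2.32 ± 0.49 to -2.28 ± 0.49 (interaction -4.59 ± 0.69, adjusted p = 0.0022). The interaction of all 6 genes passed with any 1 sample left out and under all 4 scalings, but none of the 6 kept opposite calls under all 4 scalings. The opposite calls of *Adh*, *CG42329* and *Obp99a* ended in 10, 5 and 3 of 12 fits with 1 sample left out, respectively.

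**Figure D5:**
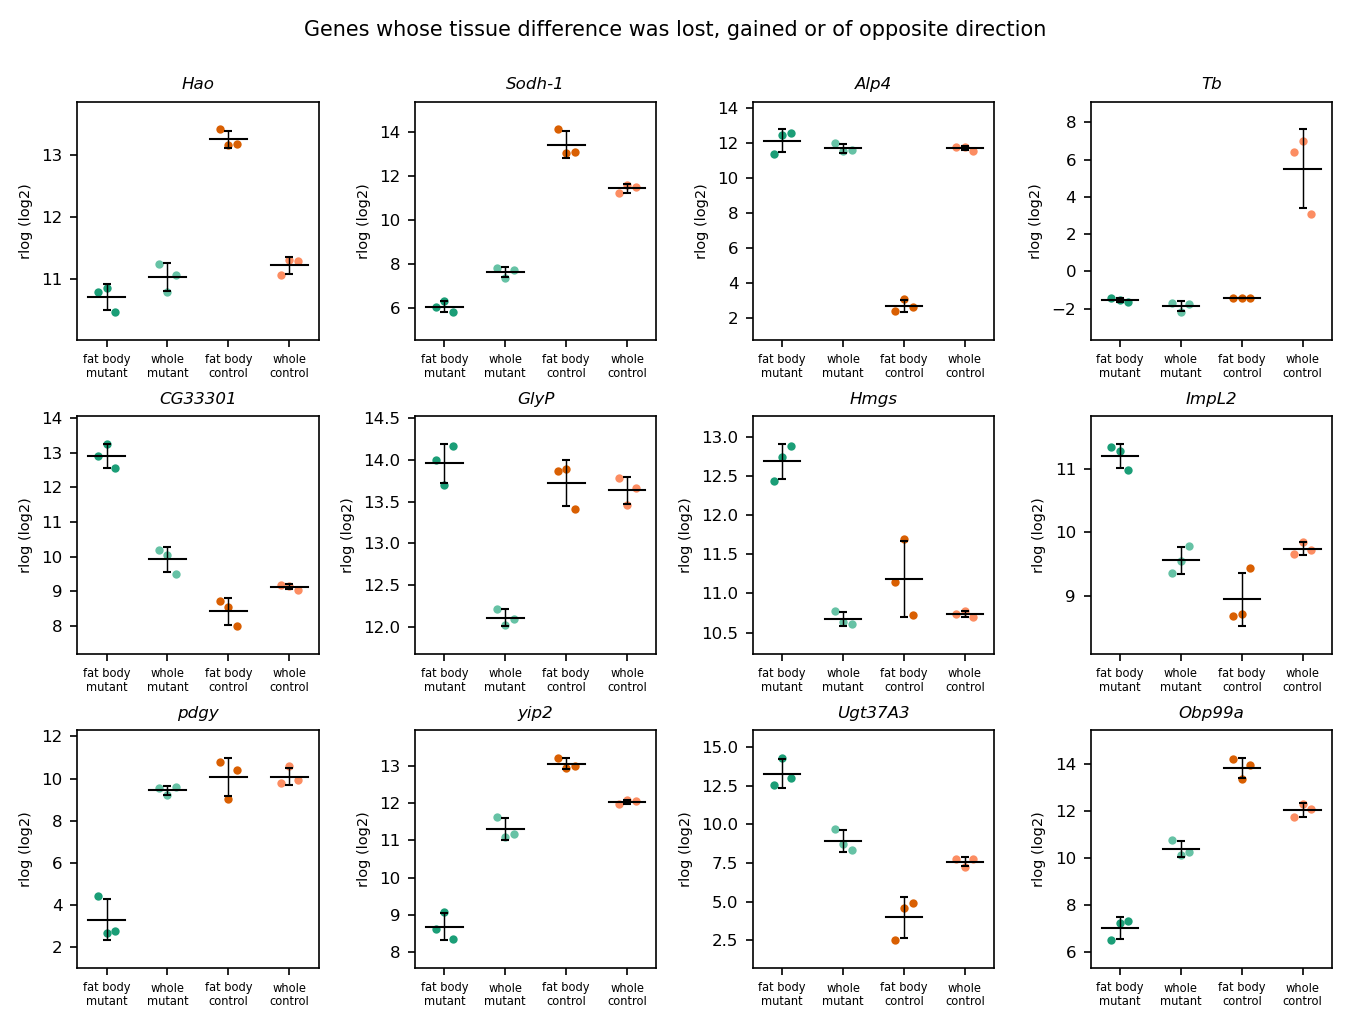
Level (rlog, log2) of 12 genes in each of the 12 samples, each point a sample, horizontal bars the group mean and vertical bars the standard deviation (n = 3), with a separate vertical scale for each gene. *Hao*, *Sodh-1*, *Alp4* and *Tb* lost a control difference, *CG33301*, *GlyP*, *Hmgs*, *ImpL2*, *pdgy* and *yip2* gained one, and *Ugt37A3* and *Obp99a* have opposite differences in the 2 genotypes.

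Of 30 UDP-glycosyltransferase genes 8 were called higher and 11 lower in mutants, against 2 and 15 in controls, and the interaction was positive for 9 and negative for 2. *Ugt35C1* was 11.55, 11.04 and 10.62 in mutant fat bodies and 8.71, 7.86 and 7.91 in mutant whole larvae, a gain from -0.26 ± 0.37 to 2.91 ± 0.37. *Ugt49C1* and *Ugt302K1* gained differences of 2.83 ± 0.19 and 2.77 ± 0.58, and the latter lost its call without any 1 of 3 samples. Of 33 glutathione S-transferase genes 4 were called higher and 9 lower in mutants, against 0 and 9 in controls. Over all genes tested 31.3% were called lower in mutants and 32.3% in controls, so the lower calls of this family do not exceed that share. *GstD6* went from 0.16 ± 0.24 to 1.89 ± 0.24 (interaction adjusted p = 0.0099). Among 71 cytochrome P450 genes 6 were called higher and 36 lower, against 7 and 30 in controls, and the interaction was negative for 11 and positive for 5. *Cyp4g1*, the oenocyte P450 of hydrocarbon synthesis, was near the floor in fat bodies and differed by -9.65 ± 0.45 in mutants. Quantile normalization raised the number called higher to 14 in the glycosyltransferase and 13 in the P450 families.

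The cuticle lists entered the comparison mostly through the whole larva. Of 30 Tweedle and Osiris genes 22 were called lower in mutant fat bodies, against 30 in controls, with an interaction that was positive for 7, and all 30 had fat body means under the minimum in mutants. The mean of this list was 4.15 to 4.81 in mutant and 7.56 to 8.34 in control whole larvae. Of 39 Cpr genes 33 were called lower in mutants and 37 in controls, and the interaction was positive for 5 and negative for 3. The difference between these counts was not tested. Of these, 18 of the 30 and 33 of the 39 reached the minimum in a mutant group.

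Among sugar-responsive transcription factors, *sug* was 10.27, 10.21 and 10.04 in mutant fat bodies and 8.53, 8.62 and 7.52 in mutant whole larvae (1.95 ± 0.25), and was not called in controls (0.88 ± 0.25), but the interaction did not pass (1.07 ± 0.36, adjusted p = 0.094). *cbt* was 11.12, 11 and 11.09 in mutant fat bodies and 10.01, 9.72 and 9.23 in mutant whole larvae, without a call, and its interaction was 1.99 ± 0.43 (adjusted p = 0.015). *foxo*, which insulin signalling restrains, moved the other way, from 0.54 ± 0.13 to -0.54 ± 0.13 (interaction adjusted p = 0.0037), again without a call. *Pgi*, phosphoglucose isomerase, and *GlyS*, glycogen synthase, were lower in both mutant tissues than in controls: *Pgi* was 9.22, 9.59 and 9.19 in mutant fat bodies and 9.71, 9.46 and 9.29 in mutant whole larvae, with 12.6 or more in all 6 controls. Their tissue differences were not called in either genotype and had interactions of -1.41 ± 0.18 and -0.95 ± 0.13.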

How the data were processed

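RNA of fat bodies and whole larvae was sequenced from stranded mRNA libraries, and the authors quantified transcripts with Salmon 1.10.2 and transformed gene counts with DESeq2 1.42.0. The deposited values are regularized log2 counts (rlog) per gene from a model with genotype, tissue and their interaction, so the shrinkage already used the groups. No raw counts were used here and the depth per sample is unknown.

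Groups came from the sample labels. Genes whose average reached the log2 of 10 in any group were tested (10069 of 24134), with 1 mean per group for all 12 samples in limma 3.58.1 (R 4.3.3), empirical Bayes moderation with a variance trend, and Benjamini-Hochberg adjustment over all genes tested. Tissue differences used treat against 1 and interactions a test against no change, at an adjusted p under 0.05. An exact permutation test of 3 against 3 samples cannot go below p = 0.1. Alternatives covered the filter, scaling, weights, variance model, thresholds, the samples fitted, a replicate block and each sample left out. Tables and plots used Python 3.11.15, pandas 2.3.3, numpy 2.4.6 and matplotlib 3.10.9.

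Named genes were the 12 largest and 12 smallest differences whose groups did not overlap, up to 8 genes of each lost, gained or opposite class by size of interaction, *ERR*, *Hnf4* and members of 47 gene lists. The members and lists were chosen with earlier results of these data known. Positions are from Ensembl release 115 (BDGP6.54). On simulated data with log2 changes of 3 among the 10069 genes, 324 of 400 changed tissue differences and 157 of 200 changed interactions were recovered, with 0 and 13 false calls. The simulated baseline means were raised above the minimum, the noise was independent with the same spread in every group, and few genes were changed. These settings differ from the data, so the recovery and false calls need not hold here, above all for genes under the minimum. Promoter sequences were not analysed here, and 1 gene is not reported here.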

Additional observations from a re-analysis of the deposited data

Results flagged for a closer look

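The tissue difference differed between the genotypes, by limma's interaction test at an adjusted p under 0.05, for 89 of the 161 genes examined by name. Each value is the mutant minus the control tissue difference on the log2 scale.

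Among genes of the fat body marker, triglyceride and hemolymph protein lists, the values were -0.71 for *mdy*, 0.74 for *AkhR*, -0.7 for *Gbp2*, -3.18 for *Tsf1*, -1.83 for *Gbp1* and -0.87 for *Idgf2*. The lipocalin *NLaz* had -1.27, and *Eglp4*, chosen as a Malpighian tubule marker, had -0.84. With 1 sample left out, the interaction did not pass in 11 of 12 fits for *NLaz*, 8 for *Gbp1* and 6 for *Eglp4*, and that of *NLaz* did not pass under any of the other 3 scalings. The vacuolar pump subunit *Vha100-1* had 0.48.

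Among the genes highest in the mutant fat body, the values were 7.94 for *Ugt37A3*, 7.05 for *CG46460*, 5.58 for *asRNA:CR44976*, 5.2 for *CG7142*, 3.22 for *CG43175* and 2.12 for *CG4269*. The other genes of opposite direction were *CG42329* with 6.0, *CG1688* with 5.79, *Ugt37A2* with 5.77, *Obp99a* with -5.16 and *Adh* with -4.59.

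For lost differences with the fat body higher in controls, the values were -3.72 for *lncRNA:CR43411*, -3.57 for *Sodh-1*, -2.51 for *Lime*, -2.51 for *CG34436*, -2.48 for *NimC3*, -2.46 for *CG33307*, -2.36 for *Hao* and -2.04 for *CG34034*. Enzymes of oxidation in this class had -0.85 (*Etf-QO*), -0.96 (*scu*) and -0.81 (*Arc42*). Enzymes of sugar, one-carbon and amino acid metabolism had -1.12 (*fbp*), -0.72 (*Rpi*), -1.15 (*Shmt*), -0.72 (*pug*), -0.88 (*ry*), -0.61 (*Hn*) and -1.47 (*Sardh*).

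For lost differences with the fat body lower in controls, the values were 9.76 for *CG9083*, 9.43 for *Alp4*, 8.68 for *Alp7*, 8.28 for *CG14257*, 7.35 for *fiz*, 7.3 for *Cyp305a1*, 7.27 for *Tb*, 7.07 for *CG12723* and 1.65 for *GstD2*.

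For gained differences with the fat body higher, the values were 4.41 for *CG1638*, 3.92 for *Ugt302K1*, 3.89 for *Invadolysin*, 3.72 for *CG33301*, 3.69 for *lncRNA:CR44964*, 3.17 for *Ugt35C1*, 1.61 for *Ugt49C1* and 1.72 for *GstD6*. Metabolic genes of this class had 1.34 (*PyK*), 0.7 (*Pglym78*), 1.75 (*GlyP*), 1.11 (*AGBE*), 0.61 (*CG7461*), 1.56 (*Hmgs*) and, for the secreted *ImpL2*, 2.45.

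For gained differences with the fat body lower, the values were -6.82 for *lncRNA:SMRG*, -6.14 for *pdgy*, -6.05 for *Daao2*, -6.01 for *Srr*, -5.56 for *CG14669*, -5.55 for *dati*, -5.21 for *CG8665*, -5.1 for *Slc45-1* and -4.59 for *Pepck2*. The thiolase *yip2* had -3.65, *Mcad* -2.8, *CG3902* -2.44, *Tpi* -1.87 and *Treh* -1.27.

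Other metabolic genes had -1.41 (*Pgi*), 2.65 (*Ldh*), -0.95 (*GlyS*), 0.73 (*CG5171*), -0.61 (*PCB*), 0.98 (*Pgd*), 1.16 (*CG8036*), 1.59 (*Fpps*), 2.43 (*qless*), -1.52 (*Acat1*) and -1.09 (*Echs1*). The transcription factors *cbt* and *foxo* had 1.99 and -1.08. The interaction did not pass in 10 of 12 fits with 1 sample left out for *Ldh*, 8 for *CG5171* and 6 for *PCB*.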

How the results depend on the processing

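Genes called higher in mutant fat bodies numbered 461 and became 1956 after median centring, 2073 after quantile normalization, 91 with treat against 2 and 2450 with a test against no change. Genes called lower went from 3065 to 1623 after quantile normalization. At an adjusted p under 0.005 the interaction passed for 329 genes in place of 1032, and 98 differences were lost, 85 gained and 2 of opposite direction, in place of 245, 176 and 6. With limma's treat against 2 these were 153, 84 and 0. Opposite directions numbered 13 after median centring and 122 with a test against no change. Genes whose mutant tissue difference changed sign under quantile normalization included *Gbp1* (3.55), *lncRNA:CR43411* (2.76), *Lime* (2.54), *CG34436* (3.38), *lncRNA:SMRG* (0.07) and *CG14669* (0.33). The sign also changed for *Lsp1alpha* (1.93), *Lsp1gamma* (2.99), *vas* (1.6), *CG12723* (1.67) and *Alp7* (0.32), none of which was called in mutants under either scaling. The cause was not tested.

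With each sample left out in turn, genes called higher ranged from 413 to 485, lower from 2911 to 3155, interactions from 691 to 1334, lost from 179 to 291, gained from 133 to 192 and opposite from 4 to 8. Replicate numbers 1 and 2 occur in both mutant groups, and the deviations of same-numbered samples correlated at -0.0817 and -0.0883. These values cannot show whether same-numbered samples were collected together. Numbers shared between mutants and controls were not examined in this way. With the replicate number as a fixed block in the mutants alone, 323 genes were called higher and 2649 lower. That fit had only 1 residual degree of freedom. With the number as a random block in all 12 samples, the interaction passed for 995, and 241 were lost, 170 gained and 6 opposite. The fixed block could not be fitted for some named genes with a low mean in mutants. The values hold no depth, so weakly expressed genes have no counting error here, and rlog shrinkage understates their differences.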
